A study of Homo sapiens with 36 samples.

Results

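The RNAs described here are the 129 rows, of 19014 in the table of normalized counts, whose gene symbol is LINC followed only by digits. They were measured by poly(A) RNA sequencing in H446 cells, a human line from small-cell lung cancer of the SCLC-N subtype in which the neural transcription factor NEUROD1 is expressed. The knockout clones 12, 15 and 2-1 carry NEUROD1 knockouts made with the same guide RNA, and the control clones 3, 10 and 13 carry a non-targeting guide RNA instead. Every clone was treated for 24 h with JQ1 at 1 µM, an inhibitor that keeps BET bromodomain proteins off acetylated chromatin, or with DMSO as the vehicle, in 3 biological replicates per clone and treatment. NEUROD1 itself stood at 1.87 ± 2.93 normalized counts in knockout clones and 5998 ± 580.5 in control clones with DMSO (SD, n = 3 clones each).

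LINC is the symbol stem given to long intergenic non-coding RNAs that had no better name when they were catalogued. Such RNAs are transcribed by RNA polymerase II, are often spliced and polyadenylated like messenger RNAs, and are known for low levels and for expression in few cell types. Some act in the nucleus on nearby genes, some bind proteins or microRNAs in the cytoplasm, some are the precursors of microRNAs, and some have turned out to encode microproteins, after which they were renamed.

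Of the 36 libraries, 35 were used, with 13282337 to 18890506 whole reads each. Replicate 1 of knockout clone 12 with JQ1 was left out; it held CD74, a marker of blood cells, at 10285 normalized counts. In the 35 libraries the lung epithelial and blood markers with a row, SFTPA2, SFTPC, PTPRC and CD74, averaged at most 7.66 normalized counts in any group. The stromal marker COL3A1 averaged 8496 ± 3266 in knockout clones and 1568 ± 2312 in control clones with DMSO (SD, n = 3 clones each). The other stromal marker with a row, COL1A1, went the other way, at 745 ± 458 and 955 ± 1038. The neuroendocrine marker INSM1 averaged 42.9 and 2832. The part of such differences in the results below was not tested. In bulk RNA, fewer cells with an RNA and less of it per cell cannot be told apart. A clone was the unit of replication, because the libraries of a clone share its genome and its history. Every log2 fold change below is a difference of clone means of log2(normalized count + 1), given with its standard error (SE), and every adjusted p comes from limma with Benjamini-Hochberg adjustment over all 15711 genes tested; a row passed at an adjusted p under 0.05. Of the 129 LINC rows, 82 had at least 10 normalized counts in at least 9 libraries and were tested, and 47 were not. A row of this kind could pass that filter through the group in which it is high. LINC00948 reached 10 only in control libraries with DMSO, and LINC00052 only in control libraries with JQ1. LINC01088 and LINC00925 reached 10 only in control libraries, and LINC00341 only in knockout libraries. With DMSO, LINC00348 reached 10 in every control library and in no knockout library. Calls on such rows draw on the same group that let them pass the filter.

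LINC RNAs were a small share of the transcripts. They took 0.0797% to 0.0846% of reads in knockout clones with JQ1, 0.0763% to 0.0855% in control clones with JQ1, 0.0722% to 0.0841% in knockout clones with DMSO and 0.0846% to 0.0908% in control clones with DMSO. A single RNA, LINC00657, also called NORAD, gave 28.8% to 52.5% of the LINC reads of a library. The median LINC row had a mean of 14.9 normalized counts over the 35 libraries and the median other row 213.8.

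By ID, 119 of the 129 rows were found in GENCODE 29 on GRCh38, where 78 are lincRNAs and 13 are annotated as protein-coding. Of the 117 with a current symbol, 37 have one that differs from the authors'. Scaled per length and averaged over the 35 libraries, LINC00493, now SMIM26, which encodes a mitochondrial microprotein, stood at 75.6 FPKM. NORAD stood at 67.2 FPKM; it was above SMIM26 with JQ1 (76.3 and 70.2 FPKM in knockout clones, 72.4 and 63.8 in control clones) and below it with DMSO. LINC00998, now SMIM30, which encodes a membrane microprotein of the endoplasmic reticulum, stood at 43.2 FPKM, and LINC00116, now MTLN, which encodes the mitochondrial microprotein mitoregulin, at 21.5 FPKM. The mean of LINC01088, 22.1 FPKM, covered groups that differed widely, with 0.509 FPKM in knockout clones and 70.3 in control clones with DMSO.

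The genes of 9 tested LINC rows hold microRNA hairpins. The mature microRNAs of the hosts described below are shown because hosts with different responses carry the same or closely related microRNAs. The sequences are from RefSeq on GRCh38.p14, written 5′ to 3′ with the seed, bases 2 to 8, in capitals; the small RNAs themselves were not measured.
miR-9-5p, in LINC00925 (MIR9-3, chr15:89368032-89368054, plus strand) and in LINC00461 (MIR9-2, chr5:88666902-88666924, minus strand): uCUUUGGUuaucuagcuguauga
miR-99a-5p, in LINC00478 (chr21:16539101-16539122, plus strand): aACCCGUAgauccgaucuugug
miR-99b-5p, in LINC00085 (chr19:51692618-51692639, plus strand): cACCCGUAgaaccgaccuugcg
let-7c-5p, in LINC00478 (chr21:16539838-16539859, plus strand): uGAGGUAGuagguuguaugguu
let-7e-5p, in LINC00085 (chr19:51692793-51692814, plus strand): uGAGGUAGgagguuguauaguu
miR-125b-5p, in LINC00478 (chr21:16590253-16590274, plus strand): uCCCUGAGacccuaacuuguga
miR-125a-5p, in LINC00085 (chr19:51693268-51693291, plus strand): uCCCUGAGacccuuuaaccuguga
miR-30a-5p, in LINC00472 (chr6:71403595-71403616, minus strand): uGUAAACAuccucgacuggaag
miR-30c-5p, in LINC00472 (chr6:71377003-71377025, minus strand): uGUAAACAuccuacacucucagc
LINC00478 and LINC00085 thus hold microRNAs of the same 3 seeds, and LINC00925 and LINC00461 hold the same mature miR-9.

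Loss of NEUROD1 was compared first with DMSO. Of the 82 LINC RNAs tested, 8 passed, 2 higher and 6 lower in knockout clones, or 9.76%; of all genes tested 12.5% passed, 6.29% higher and 6.26% lower. LINC01088, LINC00925, EWSAT1 (LINC00277), MRLN (LINC00948), LINC00348 and LINC00052 were lower in knockout clones, and LINC00341 and LINC00888 were higher. With JQ1 present, 8 passed again, 2 higher and 6 lower, against 11.2% of all genes, 5.66% higher and 5.57% lower. LINC01088, LINC00925, EWSAT1, LINC00052, LINC00341 and LINC00888 passed with both treatments, OLMALINC (LINC00263) and SPAAR (LINC00961) with JQ1, and MRLN and LINC00348 with DMSO. The comparisons use different libraries of the same clones.

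LINC01088, an RNA of chr4:78971748-79308798 that lies opposite the coding gene NAA11, had the largest fold with DMSO. Its normalized counts in knockout clones with DMSO had a lowest value of 0, a median of 5.08 and a highest of 7.56, against 122, 221 and 899 in control clones with DMSO. With JQ1 they were 0, 0.894 and 1.88 in knockout clones and 7.68, 52.0 and 196 in control clones. The groups did not overlap with either treatment, and control clone 13 was the highest clone with both. The log2 fold change of knockout over control was -6.39 (SE 0.70, adjusted p = 0.00245) with DMSO and -5.06 (SE 0.88, adjusted p = 0.0130) with JQ1. LINC00989 lies 183.6 kb farther along the same strand and was not tested. It had 0 reads in every knockout library of both treatments, against 319 reads in the 9 control libraries with DMSO, at least 104-fold higher in control clones if the knockout group is set at a floor of 3 reads in all.

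LINC00925, now MIR9-3HG, is the host of a miR-9 hairpin; miR-9 is a microRNA of neural progenitors and neurons. Its normalized counts in knockout clones with DMSO were 0 at the lowest, 0 at the median and 5.4 at the highest, against 30, 50.9 and 83.9 in control clones. With JQ1 they were 0, 0 and 1.87 in knockout clones, 3 reads in 8 libraries, against 38.5, 55.2 and 93.1 in control clones, 565 reads in 9 libraries. No knockout library reached any control library. The log2 fold change was -5.06 (SE 0.63, adjusted p = 0.00408) with DMSO and -5.63 (SE 0.44, adjusted p = 0.000363) with JQ1. In summed reads scaled for library size, another measure with no 1 added, control clones with JQ1 were 178-fold higher (95% interval 60.8 to 868, counting error only).

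The other hosts of the same miR-9 were measured too. LINC00461, the MIR9-2 host, had 20.5, 43.6 and 160 normalized counts (lowest, median, highest) in knockout clones with DMSO and 39.0, 67.5 and 123 in control clones. The groups overlapped, knockout clone 2-1 lay above every control clone mean at 136, and the log2 fold change of -0.29 (SE 0.59, adjusted p = 0.806) did not pass. C1orf61, the host of MIR9-1 and no LINC row, was added for its hairpin after the LINC values were seen. It had 28.1, 48.2 and 74.2 normalized counts in knockout clones and 92.9, 114 and 149 in control clones with DMSO. C1orf61 was lower in every knockout library (log2 fold change -1.36, SE 0.28, adjusted p = 0.0229).

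**Figure D1:**
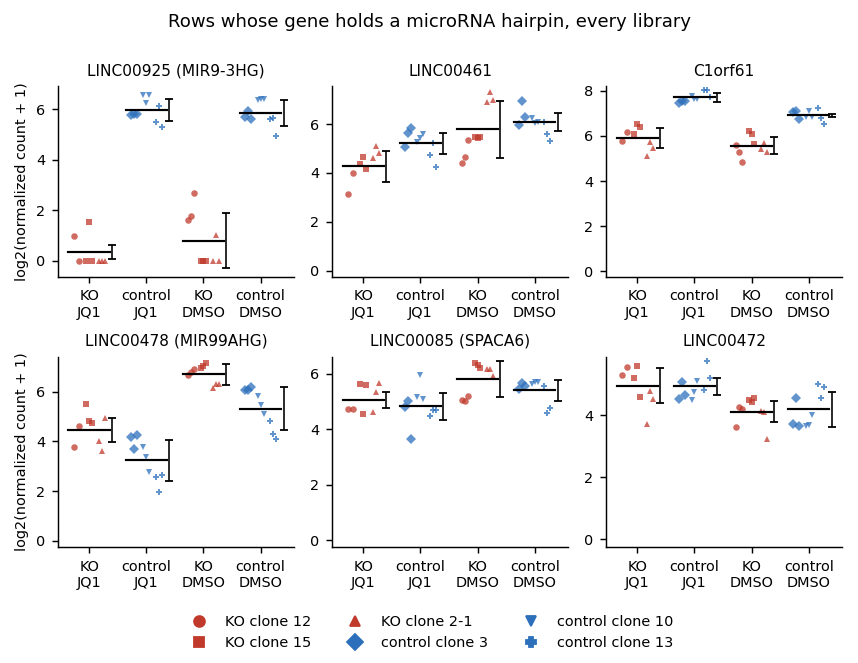
Normalized counts of microRNA host genes on a log2(count + 1) axis, with 1 point per library, the black line at the mean of the clone means and the bar spanning ± 1 SD over 3 clones; knockout (KO) groups stand left of control groups. LINC00925 is near 0 in KO clones with both treatments, whereas LINC00461 overlaps between genotypes.

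LINC00277, now EWSAT1, was first described as an RNA induced in Ewing sarcoma. Its normalized counts in knockout clones with DMSO were 0, 6.05 and 21.3, against 60.5, 95 and 269 in control clones. With JQ1 they were 0, 0.510 and 5.84 in knockout clones and 7.27, 21.2 and 74.7 in control clones. The groups did not overlap with either treatment, and control clone 3 was the highest clone. The log2 fold change was -4.17 (SE 0.80, adjusted p = 0.0189) with DMSO and -3.54 (SE 0.77, adjusted p = 0.0293) with JQ1. With DMSO the call was lost without control clone 3 or control clone 10, with the log2 fold change at -3.67 and -4.26. With JQ1 it was lost without any 1 of control clones 3, 10 and 13 or knockout clones 15 and 2-1, or without the replicates numbered 1, at -2.83 to -3.95, and with a filter of 50 counts in 9 libraries. GLCE, a coding gene of heparan sulfate synthesis 64.8 kb away on the same strand, was also lower in knockout clones with DMSO (log2 fold change -2.98, adjusted p = 0.00418).

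MRLN, listed as LINC00948, encodes myoregulin, a microprotein that inhibits the calcium pump SERCA in skeletal muscle. In knockout clones with DMSO a single read was found in 9 libraries, with normalized counts of 0, 0 and 1.03, against 161 reads and 14.8, 15.5 and 24.9 in control clones. With JQ1 knockout clones had 0 reads and control clones 0, 2.08 and 3.25 normalized counts, so that both groups were low. The log2 fold change was -4.08 (SE 0.43, adjusted p = 0.00196) with DMSO and -1.21 (adjusted p = 0.243) with JQ1. The ratio of summed reads, scaled for library size, was 158 in favour of control clones with DMSO (95% interval 28.0 to 6278, counting error only). That ratio has no 1 added to the counts and is another measure than the log2 fold change.

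LINC00348, a chromosome 13 RNA, had 0, 1.03 and 5.65 normalized counts in knockout clones with DMSO and 12.7, 18.3 and 22.4 in control clones, with no overlap. Its log2 fold change was -3.17 (SE 0.50, adjusted p = 0.00969), and with JQ1 -1.65 (adjusted p = 0.102). LINC00052 had 0 reads in all 9 knockout libraries with DMSO, against 50 reads and 2.04, 6 and 8 normalized counts in control clones. With JQ1 the knockout libraries lay at 0, 0 and 1.17 and the control libraries at 12.7, 22.8 and 34.3. LINC00052 was thus separate with both treatments and passed with both, at log2 fold changes of -2.63 (SE 0.46, adjusted p = 0.0136) and -4.02 (SE 0.51, adjusted p = 0.00362). With the knockout group set at a floor of 3 reads, it was at least 16.4-fold higher in control clones with DMSO, where its call was lost without control clone 10 (-2.53). Its nearest tested coding gene, NTRK3, the neurotrophin-3 receptor, lies 279.9 kb away and was lower in knockout clones with DMSO (log2 fold change -10.12, adjusted p = 2.76e-05).

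SPAAR, listed as LINC00961, encodes a lysosomal microprotein that restrains mTORC1 activation by amino acids. With JQ1 its normalized counts were 0, 0.486 and 2.04 in knockout clones and 2.88, 8.49 and 22.6 in control clones, which did not overlap (log2 fold change -2.70, SE 0.60, adjusted p = 0.0315). The call was lost without any 1 of the knockout clones, control clone 3 or 13, or the replicates numbered 2, at -2.24 to -2.88, and was -1.38 and lost with a pseudocount of 5. With DMSO the counts were 2.42, 10.7 and 40.5 in knockout clones and 30.2, 49.9 and 67.0 in control clones, which overlapped through knockout clone 2-1 (log2 fold change -1.86, adjusted p = 0.0870). OLMALINC, listed as LINC00263, was named for oligodendrocyte maturation and lies 8.68 kb from SCD, the stearoyl-CoA desaturase. Its normalized counts with JQ1 were 7.53, 15.9 and 31.1 in knockout clones and 35.4, 59.5 and 126 in control clones, with no overlap (log2 fold change -1.94, SE 0.47, adjusted p = 0.0421). This call was lost with edgeR, with the library left out put back (-1.82), with a filter of 1 count in 3 libraries or of 50 in 9, and without any 1 of control clones 3, 10 and 13 or knockout clones 15 and 2-1, or the replicates numbered 1 or 3, at -1.55 to -2.25. SCD was lower in the same comparison (log2 fold change -2.73, adjusted p = 0.0240).

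The higher RNAs have no role that is well known. LINC00341, which has no entry in GENCODE 29, had 22.6, 48.2 and 69.7 normalized counts in knockout clones with DMSO and 0, 0 and 3.18 in control clones. With JQ1 it had 1.94, 9.87 and 28.1 in knockout clones and 0, 0 and 2.08 in control clones. Single libraries overlapped slightly with JQ1, but all knockout clone means lay above all control clone means, at log2 fold changes of 4.64 (SE 0.65, adjusted p = 0.00626) with DMSO and 3.02 (SE 0.68, adjusted p = 0.0331) with JQ1. With JQ1 the call was lost without any 1 of the control clones, knockout clone 15 or 2-1, or the replicates numbered 1 or 3, at 2.41 to 3.15, and it was 1.52 and lost with a pseudocount of 5 and 1.80 and lost with FPKM. LINC00888, a transcribed pseudogene that holds small nucleolar RNA sequences, had 35.1, 61.6 and 111 in knockout clones with DMSO and 2.29, 16.4 and 27.6 in control clones (log2 fold change 2.22, SE 0.53, adjusted p = 0.0398). LINC00888 did not overlap between genotypes, but its call with DMSO was lost without any 1 of the control clones, knockout clone 15 or 2-1, or the replicates numbered 1, at 1.76 to 2.54, and with a filter of 50 counts in 9 libraries. With JQ1 its log2 fold change was 1.71 (SE 0.43, adjusted p = 0.0468), lost with edgeR, at equal library totals (1.68), with a filter of 1 count in 3 libraries or of 50 in 9, without the same clones and without the replicates numbered 1 or 2, at 1.29 to 1.88.

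**Figure D2:**
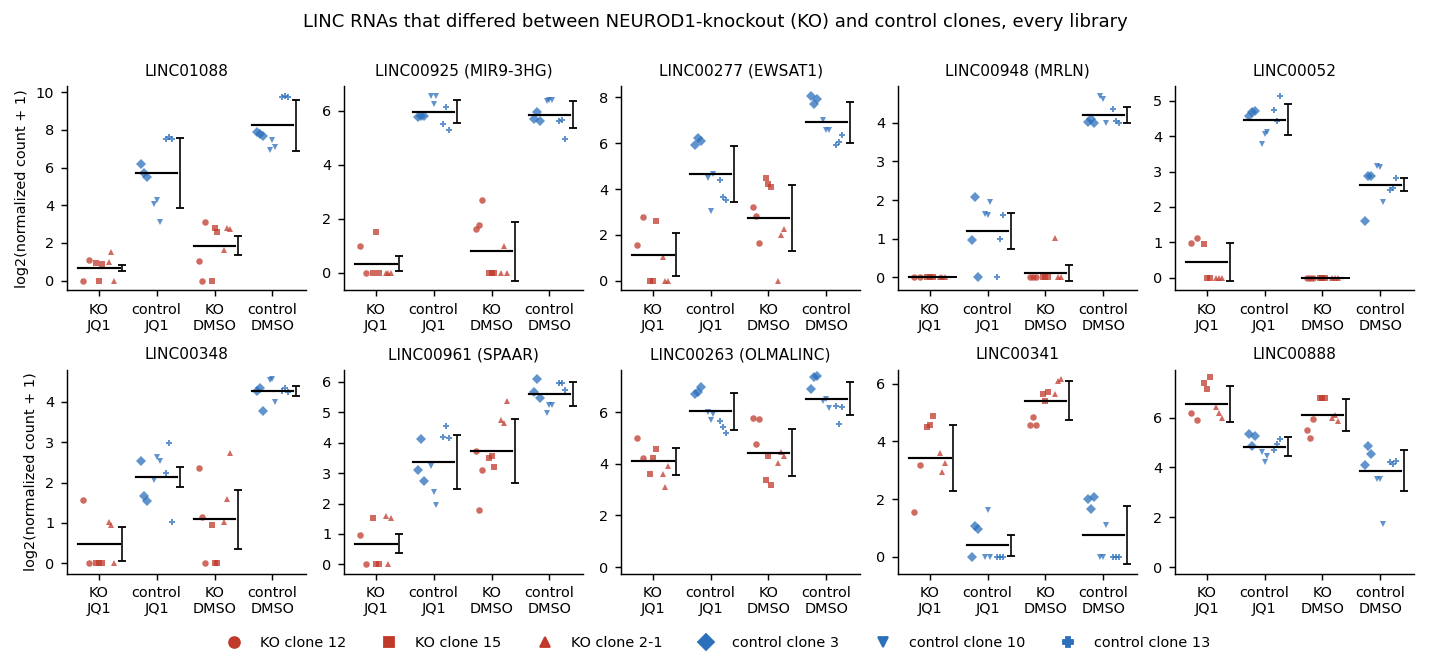
Normalized counts of the 10 LINC RNAs that passed between knockout (KO) and control clones with DMSO or with JQ1, on a log2(count + 1) axis, with 1 point per library, the black line at the mean of the clone means and the bar spanning ± 1 SD over 3 clones. The first 8 are lower in KO clones and the last 2, LINC00341 and LINC00888, are higher.

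Among the rows not tested, some showed a genotype difference as plain counts. LINC00642 had 0 reads in every knockout library with both treatments, against 216 reads in control clones with DMSO, at least 70.7-fold higher in control clones. LINC00951 had 2 reads in knockout clones and 141 in control clones with DMSO, a ratio of 69.2 in favour of control clones (95% interval 18.8 to 577). Like LINC00989, both were low with JQ1 in control clones, at 30 reads for LINC00642, 13 for LINC00951 and 8 for LINC00989. Untested rows went the other way too. With DMSO, LINC00704 had 0 reads in control clones and 35 in knockout clones, and LINC00589 had 2 and 42. All these reads are sums over the clones of a group and do not show how the clones differed. Over the 20 LINC genes listed for a role in the literature, 10 have a row and 9 were tested; for genotype 0 of the 9 passed with limma or edgeR in either treatment. At an unadjusted p under 0.05 limma and edgeR each had 2 of them with DMSO and 2 with JQ1, and DESeq2 had 2 and 3. At an adjusted p under 0.05 DESeq2 called 2 with DMSO and 1 with JQ1. With limma, 12.5% of all genes passed for genotype with DMSO and 11.2% with JQ1. The shares of all genes with edgeR or DESeq2, or at an unadjusted p, were not counted. The counts by those measures therefore have no share to be set against. With JQ1 over DMSO, 3 of the 9 rose and 3 fell in knockout clones, and 4 rose and 1 fell in control clones; of all genes 56.5% and 52.7% passed in those comparisons, either way.

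RefSeq gives a promoter window, 250 bases before to 50 after the start, for 92 of the 129 rows and for 6 of the 8 that were lower in knockout clones with either treatment. NEUROD1 belongs to the factors that bind E-boxes, and 2 E-box sequences, CAGATG and CAGCTG, were searched; other E-boxes were not. The windows with a match among those 6 are shown; GRCh38.p14, 5′ to 3′, with CAGCTG in capitals.
OLMALINC (chr10:100373326-100373625, plus strand): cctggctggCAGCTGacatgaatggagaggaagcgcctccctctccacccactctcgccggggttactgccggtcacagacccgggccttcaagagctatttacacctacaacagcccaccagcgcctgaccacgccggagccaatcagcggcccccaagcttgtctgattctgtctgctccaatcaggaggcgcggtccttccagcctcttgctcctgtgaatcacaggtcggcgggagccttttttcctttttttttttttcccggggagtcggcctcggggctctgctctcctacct
SPAAR (chr9:35909240-35909539, plus strand): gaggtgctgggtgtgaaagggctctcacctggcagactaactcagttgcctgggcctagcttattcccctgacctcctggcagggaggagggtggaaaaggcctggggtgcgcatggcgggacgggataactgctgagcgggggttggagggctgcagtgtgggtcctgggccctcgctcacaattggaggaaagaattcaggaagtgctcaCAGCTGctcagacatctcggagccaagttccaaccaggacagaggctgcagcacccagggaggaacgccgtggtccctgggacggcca
CAGCTG reads the same on both strands and was in 2 of the 6 windows, in 20.9% of 86 other LINC windows and in 17.9% of all 35116 promoters. CAGATG or its reverse complement CATCTG, searched as 1 motif on both strands and not overlapping CAGCTG by its letters, was in 0 of the 6, in 27.9% of the other LINC windows and in 14.7% of all promoters. These are letter matches in a short window only.

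JQ1 changed about as many LINC RNAs in each genotype, and more passed as lower than as higher. In knockout clones 42 of 82 passed, 13 higher and 29 lower with JQ1, or 51.2%; of all genes tested 56.5% passed, 26.3% higher and 30.2% lower. In control clones 41 passed, 18 higher and 23 lower, or 50%; of all genes 52.7% passed, 25.3% higher and 27.4% lower. The median log2 fold change of the LINC rows was -0.30 in knockout clones and -0.12 in control clones, beside -0.05 and -0.01 for the other rows. Of the LINC RNAs, 30 passed in both genotypes, which is 71.4% of those in knockout clones and 73.2% of those in control clones. Of these, 11 rose in both, 19 fell in both and 0 went opposite ways. The share of all genes that passed in both was not counted, so this overlap cannot be called particular to LINC RNAs. Between genotypes the JQ1 log2 fold changes had a Pearson r of 0.80 over LINC rows and 0.75 over all rows. The JQ1 responses of knockout and control clones come from separate libraries.

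**Figure D3:**
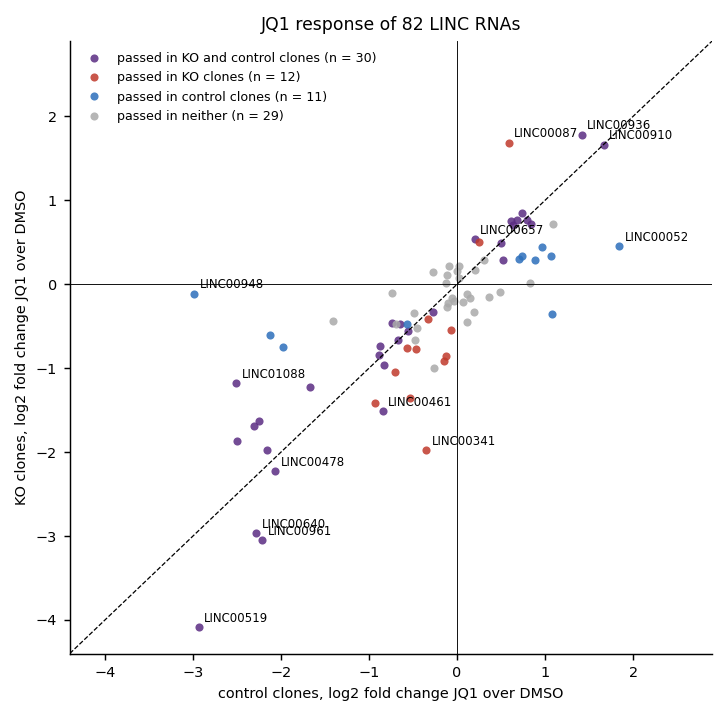
Log2 fold change of JQ1 over DMSO for 82 LINC RNAs in knockout (KO) clones (vertical) and control clones (horizontal), with 1 point per RNA coloured by where it passed and a dashed line of equal response. LINC00519, LINC00640 and LINC00961 fell steeply in both, and LINC00936 and LINC00910 rose in both.

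LINC00519 and LINC00640 both fell with JQ1. They are transcribed away from each other, with their starts 5.01 kb apart, at chr14:51304416-51328386 (minus strand) and chr14:51333393-51365557 (plus strand). LINC00519 had 0.934, 3.04 and 5.10 normalized counts with JQ1 and 14.5, 74.0 and 145 with DMSO in knockout clones, and 0, 1.04 and 5.20 with JQ1 and 4.83, 17.8 and 43.8 with DMSO in control clones. LINC00640 had 2.92, 7 and 11.3 with JQ1 and 20.5, 52.6 and 139 with DMSO in knockout clones, and 0, 3.71 and 5.69 with JQ1 and 7.33, 13.7 and 31.8 with DMSO in control clones. Libraries with JQ1 lay below those with DMSO for both RNAs, except for a small overlap of LINC00519 in control clones. LINC00519 fell by 4.09 log2 in knockout clones (SE 0.48, adjusted p = 0.000169) and by 2.93 in control clones (SE 0.48, adjusted p = 0.00106). LINC00640 fell by 2.97 (SE 0.34, adjusted p = 0.000146) and by 2.28 (SE 0.34, adjusted p = 0.000645). TMX1, a thioredoxin-related membrane protein gene and their nearest coding gene with a row, fell by 0.48 and 0.24.

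Both hosts of miR-99, let-7 and miR-125 microRNAs fell with JQ1 in knockout clones. LINC00478, now MIR99AHG, had 11.3, 24.4 and 44.0 normalized counts with JQ1 and 68.8, 109 and 140 with DMSO in knockout clones. In control clones it had 2.94, 9.35 and 18.2 with JQ1 and 16.0, 42.9 and 71.1 with DMSO. The treatments did not overlap in knockout clones and overlapped slightly in control clones. It fell by 2.23 log2 in knockout clones (SE 0.19, adjusted p = 4.23e-05) and by 2.07 in control clones (SE 0.19, adjusted p = 6.51e-05). Its neighbour USP25, a ubiquitin protease gene 48.2 kb away on the same strand, rose by 0.76 and 0.62. LINC00085, now SPACA6, which encodes a sperm protein of gamete fusion, had 22.4, 32.6 and 49.2 with JQ1 and 31.4, 70.9 and 82.6 with DMSO in knockout clones, which overlapped. It fell by 0.76 log2 in knockout clones (SE 0.22, adjusted p = 0.0181) and had -0.57 in control clones (adjusted p = 0.0579). The call in knockout clones was lost without clone 15 or 2-1 or the replicates numbered 1 or with the library left out put back, at -0.62 to -0.71, and was -0.28 and lost with FPKM.

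Of the miR-9 hosts, LINC00461 fell with JQ1 and LINC00925 did not pass. LINC00461 had 7.78, 21.6 and 32.9 normalized counts with JQ1 and 20.5, 43.6 and 160 with DMSO in knockout clones, and fell in every clone mean, by 1.51 log2 in knockout clones (SE 0.24, adjusted p = 0.000812) and by 0.85 in control clones (adjusted p = 0.0161), where the call was lost without any 1 of the control clones, at -0.80 to -0.92. In control clones LINC00925 had 38.5, 55.2 and 93.1 with JQ1 and 30, 50.9 and 83.9 with DMSO (log2 fold change 0.12, SE 0.38, adjusted p = 0.817). C1orf61 rose in control clones by 0.79 (adjusted p = 0.00535). LINC00472, the host of miR-30a and miR-30c, rose by 0.85 in knockout clones and by 0.74 in control clones (adjusted p = 0.0161 and 0.0306). Its call was lost with FPKM, at 0.41 and 0.45; in knockout clones also without clone 12 or the replicates numbered 2, at 0.57 and 0.81, and in control clones without any 1 of the control clones or the replicates numbered 2 or 3, at 0.60 to 0.89. Of all 9 microRNA hosts tested, 2 rose and 6 fell in knockout clones, where 26.3% of all genes rose and 30.2% fell. In control clones 2 of the 9 rose and 3 fell, where 25.3% of all genes rose and 27.4% fell.

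Of 13 rows annotated as protein-coding 10 were tested. With JQ1, 1 rose and 6 fell in knockout clones, beside 26.3% and 30.2% of all genes, and 0 rose and 4 fell in control clones, beside 25.3% and 27.4%. SPAAR fell by 3.05 log2 in knockout clones (SE 0.36, adjusted p = 0.000171) and by 2.21 in control clones (SE 0.36, adjusted p = 0.00102), beside falls of 2.47 and 3.15 in HRCT1, the coding gene 2.34 kb away on the same strand. SMIM30 fell by 0.46 and by 0.74, and SMIM26 by 0.33 and by 0.28. The SMIM26 call was lost without knockout clone 15 in knockout clones (-0.27), and without control clone 10 or 13 or the replicates numbered 2 in control clones (-0.18 to -0.30). MTLN had 22.4, 74.2 and 105 normalized counts with JQ1 and 57.4, 105 and 183 with DMSO in knockout clones and fell by 0.92 there (adjusted p = 0.00221); it had -0.15 in control clones (adjusted p = 0.496). The 1 that rose, LINC00087 or SMIM10L2B, had 15.1, 32.0 and 116 with JQ1 and 2.16, 6.16 and 60.3 with DMSO in knockout clones (log2 fold change 1.69, SE 0.32, adjusted p = 0.00227). SMIM10L2B has a near-identical copy, SMIM10L2A (LINC00086, not tested), so its reads are uncertain. BRD3OS (LINC00094), which lies opposite BRD3, a BET protein gene and so a target of JQ1, did not pass in either genotype (0.16 and 0.21 log2, adjusted p = 0.131 and 0.0725).

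Other falls included RNAs known from cancer studies. PURPL (LINC01021), a target of p53 that lowers p53 levels, fell by 0.97 in knockout clones and 0.83 in control clones, where the call was lost without control clone 3 (-0.64). LINC00652 had 9.37, 14.4 and 21.8 normalized counts with JQ1 and 38.9, 52.9 and 82.9 with DMSO in knockout clones, and 6.72, 14.9 and 26.5 with JQ1 and 55.1, 89.0 and 117 with DMSO in control clones. It did not overlap between treatments in either genotype and fell by 1.87 in knockout clones (SE 0.19, adjusted p = 8.83e-05) and fell by 2.50 in control clones (SE 0.19, adjusted p = 2.93e-05). LINC00963 fell by 1.23 and 1.67, LINC00578 by 1.98 and 2.16, LINC00649 by 1.69 and 2.30 and LINC00648 by 0.84 and 0.89 in knockout and control clones. In knockout clones the LINC00649 call was lost without the replicates numbered 2 (-1.15). CYTOR (LINC00152), an RNA tied to the cytoskeleton and raised in many cancers, fell in knockout clones by 1.05 (adjusted p = 0.0211) and had -0.70 in control clones (adjusted p = 0.0950). The CYTOR call was lost without knockout clone 12 or 15 or the replicates numbered 3, at -0.61 to -1.16, and with the library left out put back, at -0.53.

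Of the 11 RNAs that rose in both genotypes, LINC00936, or ATP2B1-AS1, and LINC00910 rose most. ATP2B1-AS1 lies opposite the calcium pump gene ATP2B1. Its normalized counts were 57.2, 123 and 150 with JQ1 and 19.5, 32.8 and 39.3 with DMSO in knockout clones, and 36.8, 58.2 and 72.0 with JQ1 and 11.6, 19.1 and 32.1 with DMSO in control clones. The treatments did not overlap in either genotype, and ATP2B1-AS1 rose by 1.78 (SE 0.16, adjusted p = 5.09e-05) and 1.42 (SE 0.16, adjusted p = 0.000166). LINC00910 had 77.8, 138 and 209 with JQ1 and 11.9, 39.0 and 92.7 with DMSO in knockout clones, and 44.7, 98.5 and 138 with JQ1 and 18.3, 28.6 and 42.0 with DMSO in control clones. It overlapped between treatments in knockout clones and not in control clones. It rose by 1.66 in both genotypes (SE 0.17, adjusted p = 9.66e-05 and 0.000108). DUBR (LINC00883), LINC00863, LINC00938 and LINC00663 also rose in both genotypes, by 0.61 to 0.84. The LINC00663 calls were lost with FPKM (0.39 and 0.54); in knockout clones also with DESeq2, without knockout clone 12 or 15, control clone 3 or the replicates numbered 1 or 2 (0.30 to 0.76), and in control clones without control clone 3 or 13 (0.70 to 0.82).

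NORAD, which binds PUMILIO proteins and is needed for stable chromosomes, was at 5529, 6953 and 7238 normalized counts with JQ1 and 3362, 5156 and 5410 with DMSO in knockout clones. In control clones it was at 5393, 6007 and 6855 with JQ1 and 5097, 5262 and 5540 with DMSO. The treatments did not overlap in knockout clones and overlapped slightly in control clones. NORAD rose by 0.54 log2 in knockout clones (SE 0.07, adjusted p = 0.000395) and by 0.20 in control clones (SE 0.07, adjusted p = 0.0456). In control clones the call was lost at equal library totals and with FPKM (0.13 each), with the library left out put back (0.20), without any 1 of the control clones and without the replicates numbered 2 or 3 (0.13 to 0.24). Its share of the LINC reads had a median of 49.8% with JQ1 and 38.7% with DMSO in knockout clones, and 45.1% with JQ1 and 38.3% with DMSO in control clones.

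The RNAs lower in knockout clones with DMSO had their own JQ1 response in control clones; both comparisons use the control libraries with DMSO, so the values are only set side by side. In control clones LINC01088 fell by 2.51 (SE 0.30, adjusted p = 0.000231), EWSAT1 by 2.25 (SE 0.50, adjusted p = 0.00561), LINC00348 by 2.13 (SE 0.35, adjusted p = 0.00114) and MRLN by 2.99 (SE 0.38, adjusted p = 0.000304). LINC00052 rose by 1.84 (SE 0.40, adjusted p = 0.00472), and LINC00925 did not pass. The difference of the JQ1 responses was tested directly as knockout minus control clones. Of the 82 LINC RNAs 1 passed, higher, and 0 lower, against 7.35% of all genes, 3.76% higher and 3.58% lower. It was MRLN, at 2.87 log2 (SE 0.54, adjusted p = 0.0261), with 0 reads in knockout clones with JQ1 and 1 read with DMSO, so that no fall could be seen there. MRLN passed the filter only through the control libraries with DMSO, which this comparison uses too. The call was not made by edgeR or DESeq2, and it was lost without any 1 of control clones 3, 10 and 13 and without knockout clone 15. An unadjusted p under 0.05 was found for 17 LINC RNAs, MRLN included, of which the other 16 did not pass the adjustment. The share of all genes at that unadjusted threshold was not counted, so the 17 cannot be called many or few.

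Level was compared by dividing all rows into bins of mean normalized count. Reweighted to the levels of the LINC rows, 12.7% of other rows passed for genotype with DMSO and 10.5% with JQ1, beside 9.76% of LINC rows in each. For JQ1, 46.8% of other rows at like level passed in knockout clones and 42.7% in control clones, beside 51.2% and 50% of LINC rows. For the difference in response it was 4.40% of other rows beside 1.22% of LINC rows. These shares are descriptions with no test. At like level 5.61% of other rows and 7.32% of LINC rows were lower in knockout clones with DMSO, and 32.1% and 35.4% fell with JQ1 in knockout clones. By symbol, 216 rows named as antisense RNAs passed at 7.87% for genotype with DMSO and at 51.4% for JQ1 in knockout clones. The 1581 rows named after genomic clones passed at 6.51% and 34.8%. The 11 rows named as microRNA host genes passed at 27.3% and 45.5%, and 14 named as small nucleolar RNA host genes at 0% and 71.4%. These classes were not matched for level.

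**Figure D4:**
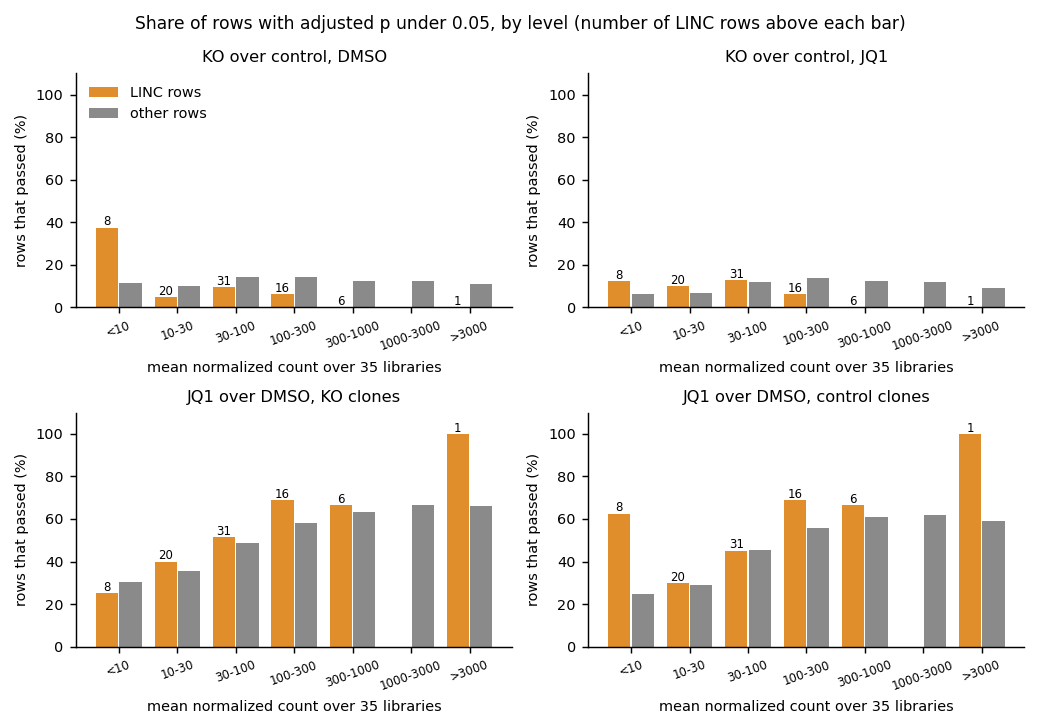
Share of LINC rows and of other rows with an adjusted p under 0.05, in percent, by mean normalized count over 35 libraries; the number above a bar is the count of LINC rows in that bin. For JQ1 in knockout (KO) clones, 30.5% of other rows passed in the lowest bin and 63.3% between 300 and 1000; the lowest bin holds 8 LINC rows.

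Clones of the same genotype differed widely for some LINC RNAs, and 7 rows, none of them tested, were high in a single clone. These had a clone mean with DMSO of at least 10 normalized counts and at least 5 times that of every other clone, and they were chosen by those values. Knockout clone 12 held 4 of them, knockout clone 2-1 held 1, and control clones 3 and 13 held 1 each. LINC00473, a cAMP-responsive RNA known from lung cancers without LKB1, had 165 to 203 normalized counts in the libraries of knockout clone 12 with DMSO and a mean of 1.66 in the next clone. With JQ1 it stood at a mean of 218 in knockout clone 12 and at 0 reads in every control library. LINC00639 had 133 to 152 in knockout clone 2-1 with DMSO and a mean of 1.33 in that clone with JQ1. LINC00479 had 48.4 to 78.8 in knockout clone 12 with DMSO. Such rows were 6.42% of the 109 LINC rows that reached 10 in a clone, 3.24% of other rows and 5.41% of other rows at like level.

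**Figure D5:**
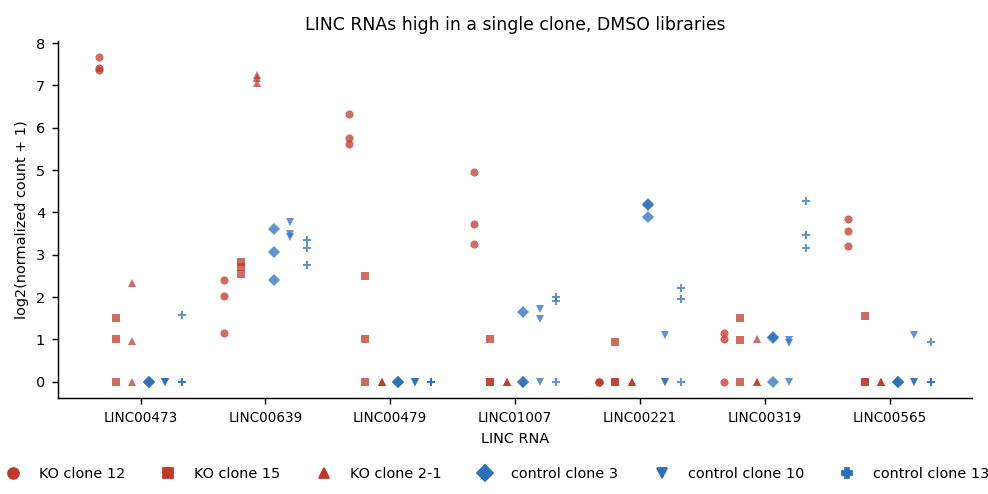
Normalized counts of the 7 LINC RNAs that were high in a single clone, in the DMSO libraries of each clone, on a log2(count + 1) axis, with 1 point per library. LINC00473, LINC00479, LINC01007 and LINC00565 stand high in knockout (KO) clone 12, LINC00639 in KO clone 2-1, LINC00221 in control clone 3 and LINC00319 in control clone 13.

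Among the rows tested, LINC00578 had the widest range of clone means within a genotype, at 91.0, 1.55 and 7.52 normalized counts in knockout clones 12, 15 and 2-1 with DMSO. CYTOR had 43.2, 190 and 19.0 in the same clones, and SMIM10L2B had 4.10, 50.5 and 6.96. LINC00511, an RNA often raised in carcinomas, had 27.4, 52.3 and 173, all above the control clone means of 9.07, 11.5 and 14.1. LINC00511 did not pass between genotypes (log2 fold change 2.46, SE 0.67, adjusted p = 0.0609), and knockout clone 2-1 was its highest clone. It rose with JQ1 in control clones by 1.08 (adjusted p = 0.00865; 0.97 and lost without control clone 13) and had -0.35 in knockout clones (adjusted p = 0.280), a difference that did not pass (adjusted p = 0.0542). Of the 82 tested rows 29 passed in neither JQ1 comparison, and 27 passed in no comparison at all. The matching shares of all genes were not counted.

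The nearest coding genes were counted beside the LINC rows. Only coding genes with a row of normalized counts were considered, so a nearer one without a row would be missed. A nearest coding gene that was itself tested was found for 75 LINC rows. For genotype with DMSO, 6 of the LINC RNAs that passed had one, and in 3 of the 6 it passed in the same direction. Those 3 were GLCE, 64.8 kb from EWSAT1, NTRK3, 279.9 kb from LINC00052, and MZT1, 1540 kb from LINC00348. Over all 75 the nearest coding gene passed for 14, and of all genes 12.5% passed. For JQ1 in knockout clones it passed with 18 of 39, in the same direction in 11, and over all 75 for 36, where 56.5% of all genes passed. In control clones it passed with 22 of 38, in the same direction in 15, and over all 75 for 46, where 52.7% of all genes passed. The JQ1 counts lie near those shares. Of the 129 rows, 21 overlap a coding gene with a row, by positions in GENCODE 29. The sources used here do not state whether the counting used strand, so for a row that overlaps a coding gene, such as LINC01088, ATP2B1-AS1, BRD3OS or LINC00649, reads of both genes cannot be told apart.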

How the data were processed

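Poly(A) RNA was made into stranded libraries, per the labels' protocols. The submitters' processing notes name cutadapt, STAR and RSEM and the build hg19; the sources used here do not state whether counting used strand. The deposited normalized counts are a signal: per gene reads divided by a library size factor, per the file headers. All values came out as whole reads (100% within 1e-06). The authors also deposited FPKM, used for levels between genes and as an alternative. Of 553 LINC rows with FPKM, 129 have normalized counts, by a rule that no label or header states.

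Values were averaged per clone as log2(normalized count + 1) and fitted with limma 3.58.1 (R 4.3.3) across genes with at least 10 in at least 9 of 35 libraries. Genotype was compared over 3 against 3 clones. JQ1 was tested on JQ1 minus DMSO differences of 6 clones with 1 estimate of spread. Tests were two-sided with Benjamini-Hochberg adjustment at 0.05, and edgeR 4.0.16 and DESeq2 1.42.0 on reads summed per clone were alternatives. The code was tested on simulated data. Intervals are exact at 95% and cover counting error only. Positions and neighbours come from GENCODE 29 on GRCh38, matched by gene ID; sequences from RefSeq on GRCh38.p14.

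Members and lists were chosen with earlier results of these data known. RNAs were named where their adjusted p and fold were among the 8 largest rises or falls per comparison with all clones on 1 side, for the 8 highest FPKM, the 6 widest clone ranges, 0 reads in 1 genotype, or a role in the literature; others named to complete a group were chosen after their values were seen.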

Additional observations from a re-analysis of the deposited data

Results flagged for a closer look

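The JQ1 response of MRLN, listed as LINC00948, differed between knockout and control clones by 2.87 on the log2 scale in limma (SE 0.54, adjusted p = 0.0261). It fell in all 3 control clones, and knockout clones had 1 read with DMSO and 0 with JQ1. MRLN passed the filter only through the control libraries with DMSO, so its difference draws on the group that let it in.

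The library left out, replicate 1 of knockout clone 12 with JQ1, held LINC RNAs above the level of its replicates and of every control library. Of these, 16 are listed below and others are not. An example of the others is LINC00969 at 1370, against 405.3 and 472.7 in its replicates and at most 561.2 in control libraries. LINC00963 stood at 1016 normalized counts there, against 89.4 and 80.5 in its replicates. CYTOR (LINC00152) stood at 297.1, against 10.7 and 10.5. LINC00511 and LINC00342 stood at 201.2 each, and LINC00649 at 193.3, against 0.972 and 5.84 in its replicates. LINC01002 was at 59.8, LINC00893 at 45.1, LINC00319 at 36.6, LINC01011 at 32.1, and LINC00957 and LINC00672 at 29.3 each. LINC00852 was at 19.7, LINC00862 at 16.9, LINC00337 at 15.8, LINC00704 at 15.2 and LINC01059 at 14.1. The same library held SFTPA2, a surfactant protein of lung epithelium, at 12390 normalized counts and the collagen COL3A1 at 32669.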

How the results depend on the processing

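The 100 values of named LINC RNAs were recomputed under each alternative, which gave 2070 values; 1912 kept direction and side of the threshold, 158 kept direction but lost the call and 0 reversed. Of the 100, 65 lost the call nowhere. The alternatives include fits with single libraries as replicates, which give more calls and so could hardly lose one. They also include leaving out a clone of the genotype not compared, which leaves a JQ1 fold change as it was. The count of kept values is therefore no measure of how firm the calls are. For the number of LINC RNAs past the threshold, a filter of 50 normalized counts in 9 libraries, which left 53 LINC rows, gave 3 for genotype with DMSO, 2 with JQ1 and 0 for the difference in JQ1 response (limma). DESeq2 gave 17, 13 and 3, and edgeR gave 0 for the difference. With single libraries as replicates and no replicate block the counts were 43, 38 and 24, and with the replicate block 43, 36 and 23. The cause of these changes was not tested. For the alternatives here and below, the share of all genes past the threshold was not counted. These counts therefore show nothing particular to LINC RNAs. Same-numbered libraries did not deviate together in 90 pairs (r from -0.0598 to 0.0848, 0 over 0.1). The pairs joined different clones within a treatment, or both treatments of the same clone. DMSO libraries were not set against JQ1 libraries of another clone, and knockout clone 12 with JQ1 was not included. No pairing by number was seen in the pairs compared. The block left 53 and 59 calls for JQ1 in knockout and control clones. Requiring 2-fold gave 18 in each JQ1 comparison. For the difference in response, a pseudocount of 5 gave 4, a filter of 1 count in 3 libraries 5 of 129, and FPKM 2. Leaving out a clone or replicate number gave 5 to 12 for genotype with DMSO (5 without control clone 10), 3 to 10 with JQ1, 35 to 41 for JQ1 in knockout clones, 33 to 46 in control clones and 0 to 3 for the difference. With JQ1 the genotype count was 3 without control clone 3, control clone 13 or knockout clone 2-1, 4 without control clone 10 or replicates numbered 1, and 5 without knockout clone 15. Few reads limit LINC rows: 47 of 129 lay below the filter.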
